A study of Mus musculus with 2 samples.

Results

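The promoter regions described here had at least 2-fold more ATAC-seq signal in the liver of *Mettl3*-HKO mice than in the liver of *Mettl3* flox/flox mice. They were selected on that difference. A region was a member when its centre lay within 1 kb of a transcription start site, when it held at least 50 reads in both libraries together, and when the log2 ratio of its signal in RPM, read counts scaled to library size,, *Mettl3*-HKO over flox/flox, was at least 1. Of 69549 distinct regions in the deposited table, 14387 were promoter regions and 13996 of these held at least 50 reads. The members were 434 of those 13996, which is 3.1% of them, and they belonged to 414 genes. A further 391 promoter regions held fewer than 50 reads and could not become members, although 152 of them were at least 2-fold higher in *Mettl3*-HKO.

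*Mettl3*-HKO mice carry floxed *Mettl3* alleles and *Alb*-Cre, a Cre recombinase driven by the albumin promoter, which is active in hepatocytes. The study describes the deletion as specific to hepatocytes. The *Mettl3* flox/flox mice carry the same floxed alleles without Cre. All mice were C57BL/6 animals of 8 weeks on normal chow, and the livers of 4 mice were pooled into 1 library per genotype. There is therefore no replicate, no test was made, and all values of the ratio describe these 2 libraries.

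ATAC-seq marks DNA that the Tn5 transposase can reach. Active promoters are depleted of nucleosomes and are open in most cells, and many housekeeping promoters are rich in CpG dinucleotides. Promoters used by only some cell types are often closed elsewhere, so in a whole tissue they give a weak signal. Hepatocytes make up most of the liver mass, with sinusoidal endothelial cells, Kupffer cells (the resident macrophages), stellate cells, cholangiocytes and lymphocytes between and beside them. In pooled nuclei, a larger number of nuclei of a cell type and a more open promoter in each nucleus cannot be told apart.

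The flox/flox library held 52826202 reads and the *Mettl3*-HKO library 58038305. In the flox/flox library 31.7% of reads fell on the regions of the table, against 22.3% in *Mettl3*-HKO. The median log2 ratio was -0.57 over the promoter regions and -0.38 over all regions, and 2285 promoter regions (16.3%) were at least 2-fold lower in *Mettl3*-HKO. With the ratios scaled to library size, the members therefore stand against a background in which 14.8% of promoter regions had a ratio above 0. Other ways of scaling the libraries add 0.38 to 0.65 to every log2 ratio, so that the order of the regions stays the same and more of them pass the threshold.

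Reference sequences of 8 member promoters are shown because they are the strongest members, among those with a RefSeq promoter, of the gene groups described in the next paragraphs, or have the highest ratios. They are 300 bases from RefSeq on GRCm38.p6, from 250 bases before the start site to 50 bases from it onwards, in the direction of the gene. Capitals mark CG dinucleotides in the first 7. In *Ifit3b* capitals mark instead the letters GAAANNGAA, which interferon regulatory factors (IRF) can bind, found there on the reverse strand. *Egfl7* (chr2:26583615-26583914, plus strand) stands for the endothelial genes. *C1qb* (chr4:136886151-136886450, minus strand) stands for the macrophage genes. *Cxcl14* (chr13:56296502-56296801, minus strand) is a chemokine gene. *Eda2r* (chrX:97377160-97377459, minus strand) is on the p53 list. *Gata2* (chr6:88198414-88198713, plus strand) encodes an endothelial and blood transcription factor. *Cib3* (chr8:72212788-72213087, minus strand) and *Arhgef2* (chr3:88615893-88616192, plus strand) have high ratios. *Ifit3b* (chr19:34607707-34608006, plus strand) is an interferon-induced gene and was picked after its values were seen.
Egfl7: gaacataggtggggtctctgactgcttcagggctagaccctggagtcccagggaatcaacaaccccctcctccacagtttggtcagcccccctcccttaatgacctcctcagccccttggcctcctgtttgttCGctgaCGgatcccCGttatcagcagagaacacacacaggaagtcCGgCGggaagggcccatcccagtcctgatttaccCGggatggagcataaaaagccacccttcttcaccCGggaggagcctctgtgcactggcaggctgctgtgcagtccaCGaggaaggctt
C1qb: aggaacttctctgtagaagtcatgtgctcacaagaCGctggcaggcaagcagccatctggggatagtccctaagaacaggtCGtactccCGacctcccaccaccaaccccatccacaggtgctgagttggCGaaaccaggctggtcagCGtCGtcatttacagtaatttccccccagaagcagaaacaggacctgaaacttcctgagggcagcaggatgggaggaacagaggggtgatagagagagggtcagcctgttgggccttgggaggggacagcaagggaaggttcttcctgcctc
Cxcl14: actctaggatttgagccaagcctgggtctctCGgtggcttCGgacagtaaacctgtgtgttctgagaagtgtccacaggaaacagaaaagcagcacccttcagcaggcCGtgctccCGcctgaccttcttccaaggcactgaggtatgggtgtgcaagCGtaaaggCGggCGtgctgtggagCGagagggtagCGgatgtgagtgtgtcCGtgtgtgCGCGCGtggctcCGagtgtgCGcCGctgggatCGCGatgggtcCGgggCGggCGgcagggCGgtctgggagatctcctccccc
Eda2r: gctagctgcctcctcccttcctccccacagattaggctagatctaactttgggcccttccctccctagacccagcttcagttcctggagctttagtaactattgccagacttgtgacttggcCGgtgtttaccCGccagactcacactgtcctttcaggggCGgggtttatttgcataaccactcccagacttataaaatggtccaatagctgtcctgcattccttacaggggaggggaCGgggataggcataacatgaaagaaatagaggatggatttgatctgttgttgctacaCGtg
Gata2: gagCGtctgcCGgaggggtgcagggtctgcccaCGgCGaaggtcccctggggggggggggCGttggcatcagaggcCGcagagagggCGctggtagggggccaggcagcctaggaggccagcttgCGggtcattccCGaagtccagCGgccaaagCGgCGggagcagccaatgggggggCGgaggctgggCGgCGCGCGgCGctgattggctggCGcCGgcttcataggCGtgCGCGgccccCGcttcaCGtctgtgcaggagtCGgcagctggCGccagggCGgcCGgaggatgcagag
Cib3: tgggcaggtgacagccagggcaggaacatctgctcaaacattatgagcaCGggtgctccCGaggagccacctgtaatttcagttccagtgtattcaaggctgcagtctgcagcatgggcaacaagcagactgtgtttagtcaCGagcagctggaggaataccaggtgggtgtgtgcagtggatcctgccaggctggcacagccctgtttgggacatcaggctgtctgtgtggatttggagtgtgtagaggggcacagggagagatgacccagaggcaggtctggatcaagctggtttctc
Arhgef2: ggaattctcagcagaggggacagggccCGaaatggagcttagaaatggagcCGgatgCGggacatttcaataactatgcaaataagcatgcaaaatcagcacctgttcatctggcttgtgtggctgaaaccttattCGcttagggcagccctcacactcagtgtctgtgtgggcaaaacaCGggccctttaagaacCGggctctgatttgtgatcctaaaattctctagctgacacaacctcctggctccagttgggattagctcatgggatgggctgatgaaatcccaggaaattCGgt
Ifit3b: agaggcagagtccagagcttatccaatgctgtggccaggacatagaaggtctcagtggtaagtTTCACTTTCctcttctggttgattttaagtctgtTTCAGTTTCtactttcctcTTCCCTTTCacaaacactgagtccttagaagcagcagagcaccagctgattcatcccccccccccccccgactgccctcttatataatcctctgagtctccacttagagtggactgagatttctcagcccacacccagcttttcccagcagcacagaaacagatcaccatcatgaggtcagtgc
The *Gata2* window holds 29 CG dinucleotides and the *Cxcl14* window 22. *Egfl7* has 8, *Arhgef2* 7, *C1qb* 6, *Eda2r* 5, *Cib3* 3 and *Ifit3b* 1.

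The members were weak regions. Their counts ran from 5 to 721 reads in flox/flox, with a median of 23, and from 35 to 2031 reads in *Mettl3*-HKO, with a median of 73. Their median total of 96.5 reads compares with 704 reads for the other promoter regions, and their median length of 347.5 bp with 794 bp. The log2 ratio, by which they were chosen, ran from 1.0 to 3.64 with a median of 1.35. There were 378 members between 2-fold and 4-fold higher, 56 at least 4-fold and 6 at least 8-fold. The 95% Clopper-Pearson interval of the ratio lay at or above 1 in 119. It is computed from the counts that chose the members and supports nothing about them. Such intervals cover counting error only. Whether the counts include duplicate reads is not known here. Such reads are not independent molecules and would make the intervals too narrow.

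The share of promoter regions that were members fell with the signal. It was 16.8% (226 of 1348) at 50 to 100 reads, 7.65% (126 of 1648) at 100 to 200 reads and 2.60% (73 of 2811) at 200 to 500 reads. At 500 to 1000 reads it was 0.223% (7 of 3141), and at 1000 reads or more it was 0.0396% (2 of 5048). Hence features of the members are set beside a same-signal value, the mean over all promoter regions of like total count, members included, weighted to the members' own distribution over 20 groups of total count. For a gene list it is the number of list regions that 434 promoter regions of like count would hold. The mean length of the members was 405 bp, against 375 bp at the same signal, so that at like count they were not narrower. A peak was called in *Mettl3*-HKO at all 434 members and also in flox/flox at 89 (20.5%), against 43.7% with a peak in both libraries at the same signal. The other 345 members (79.5%) had a peak in *Mettl3*-HKO only, against 29.2% at the same signal. Peak calls rest on the same reads as the rule and describe it only.

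**Figure D1:**
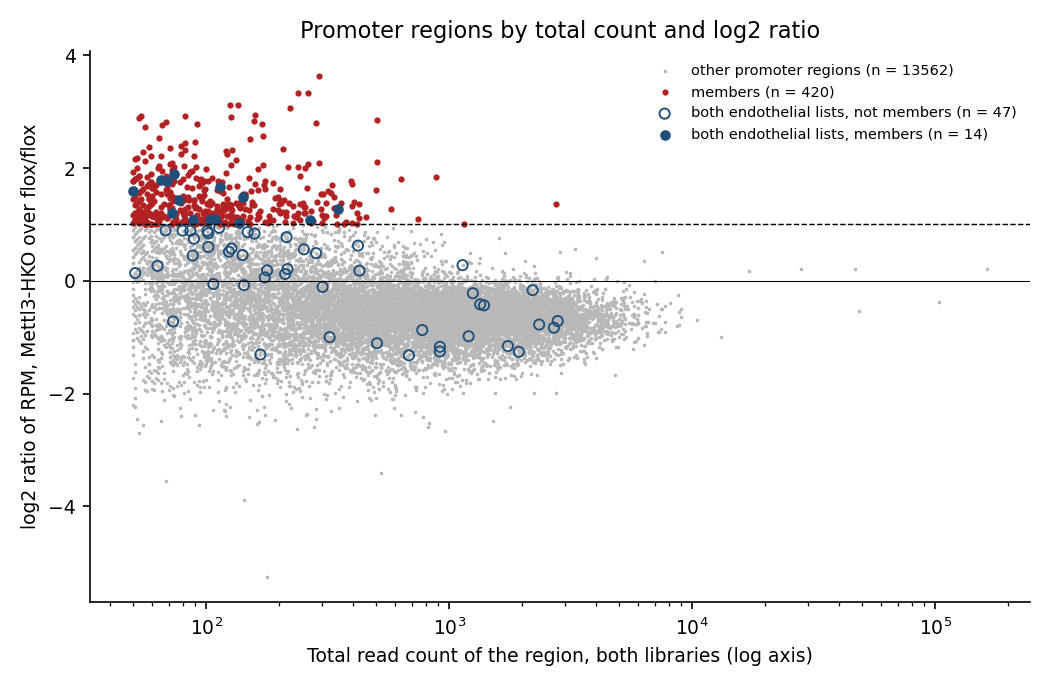
Each point is a promoter region of at least 50 reads, with its total count on the x axis (log scale) and the log2 ratio of RPM, *Mettl3*-HKO over flox/flox, on the y axis. The dashed line is the threshold at 1. Red and filled blue points are members, blue marks both endothelial gene lists (14 members), and the members crowd at low counts while regions of 1000 reads or more centre on -0.64.

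Endothelial genes were the cell type group with the most members. The cell type and function lists, called fixed, were chosen with earlier results of these data known, so their counts are a description only. Of 45 genes fixed as markers of endothelial cells, 28 had a promoter region of at least 50 reads, in 32 regions. Among these 32 regions 11 were members (34.4%), against the 3.1% of all promoter regions, and 28 had a ratio above 0. The same-signal number was 3.08. Under the other scalings 20 to 25 of the 32 were members, beside 5.67% to 8.53% of all promoter regions. With a minimum of 100 reads 6 of 21 were members, beside 1.64% of all, and with 200 reads 2 of 7, beside 0.745%. The median log2 ratio of the 32 regions was 0.85, beside -0.57 for all promoter regions. Their median total was 120.5 reads, and the 700 promoter regions of 102 to 137 reads had a median of -0.16.

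Several of the 11 encode receptors of endothelial cells, of which *Stab2* and *Lyve1* are known from liver sinusoidal endothelium and *Kdr* and *Tek* from endothelium in general. *Stab2*, the scavenger receptor for hyaluronan, had 13 reads in flox/flox and 52 in *Mettl3*-HKO, a log2 ratio of 1.78. *Lyve1*, a further hyaluronan receptor, had 14 and 55 reads (1.76). *Kdr*, a receptor of vascular endothelial growth factor, had 25 and 89 reads (1.66), and *Tek*, the receptor of angiopoietins, had 11 and 39 (1.60). All 4 were below 30 reads in flox/flox, and the ratios of all 11 ran from 1.02 (*Cd93*) to 1.89 (*Icam2*). Junction and adhesion genes followed. *Icam2* had 14 and 60 reads (1.89), *Cdh5*, which encodes VE-cadherin, 19 and 58 (1.42), and the tight junction gene *Cldn5* 31 and 73 (1.07). Its second promoter region, at 28 and 58 reads, had a ratio of 0.89 and was no member.

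The others encode secreted factors and further surface proteins. *Bmp2*, a ligand that sinusoidal endothelium sends to hepatocytes, had the highest counts of the group, 95 and 253 reads (1.27). *Egfl7*, a secreted factor of endothelial cells, had 34 and 107 (1.49). *Thbd*, which encodes the thrombin receptor thrombomodulin, had 80 and 186 (1.07), and its neighbour *Cd93*, a surface receptor, 42 and 95 (1.02). The endothelial regions that did not reach the threshold included several near it. The second region of *Thbd* had 36 and 77 reads (0.94). *Ramp2* had 26 and 54 reads (0.89), *Oit3* 33 and 68 (0.89), *Nos3* 49 and 99 (0.86) and *Ehd3* 53 and 105 (0.84). Farther from it, the other region of *Esam* had 74 and 140 (0.77) and *Robo4* 38 and 64 (0.60). *Clec4g* had 48 and 79 (0.57), *Flt1* 96 and 156 (0.56), *Wnt2* 56 and 85 (0.46) and *Dnase1l3* 35 and 53 (0.45). Still lower were *Adgrl4* (79 and 99 reads, 0.19), *Clec14a* (190 and 237 reads, 0.18) and *Eng* (23 and 28 reads, 0.14). The regions with a ratio below 0 were *Tie1* (70 and 73 reads, -0.076), the stronger region of *Esam* (334 and 170 reads, -1.11) and both of *Tspan7* (-0.72 and -1.31).

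Transcription factors of endothelial cells were fixed as a separate list. Of its 29 regions 3 were members, beside a same-signal number of 1.41. *Sox18*, a factor of vascular development, had 20 and 52 reads (1.20), *Lyl1* 32 and 77 (1.11) and *Gata2* 26 and 62 (1.09). The median of the list was -0.16 and 12 of 29 regions had a ratio above 0. Its median total was 682 reads, so that most of this list lay in a range of signal with few members.

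Of 30 macrophage and Kupffer cell markers only 4 genes had a promoter region of at least 50 reads, in 6 regions. Of these 3 were members, beside a same-signal number of 0.460. *C1qc* and *C1qb*, adjacent genes for chains of complement C1q, which macrophages make, had 19 and 60 reads (1.47) and 30 and 71 reads (1.08). *Cd14*, the lipopolysaccharide co-receptor, had 31 and 73 reads (1.07), and its other region 45 and 72 (0.53). Both regions of *Hpgd* were lower, at -1.09 and -1.15. The other 26 markers had no region that could be read, so that the list speaks for few genes.

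The other fixed cell type lists held no member, and their same-signal numbers were below 1 as well: 0.193 for hepatocyte, 0.456 for cholangiocyte, 0.377 for stellate cell, 0.663 for neuronal, 0.104 for blood and 0.129 for lymphocyte markers. A count of 0 is therefore no contrast with the endothelial list. Hepatocyte markers had 34 regions with a median log2 ratio of -0.77, 3 of them above 0. Their median total was 899.5 reads, and the 699 promoter regions of 898 to 1026 reads had a median of -0.66. Cholangiocyte markers had 10 regions (median -0.22) and stellate cell and fibroblast markers 7 (-0.14). Neuronal and glial markers had 6 (-0.72), blood and platelet markers 3 (-0.65) and lymphocyte markers 1 (-0.14). Summed over all regions of a list, endothelial markers had 38.3 RPM in flox/flox and 54.2 RPM in *Mettl3*-HKO. The hepatocyte sum was 394 RPM and 242 RPM, and the macrophage sum, which *Hpgd* dominates, 23.0 RPM and 14.4 RPM. The part of cell type shares in the ratios of the members was not tested.

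**Figure D2:**
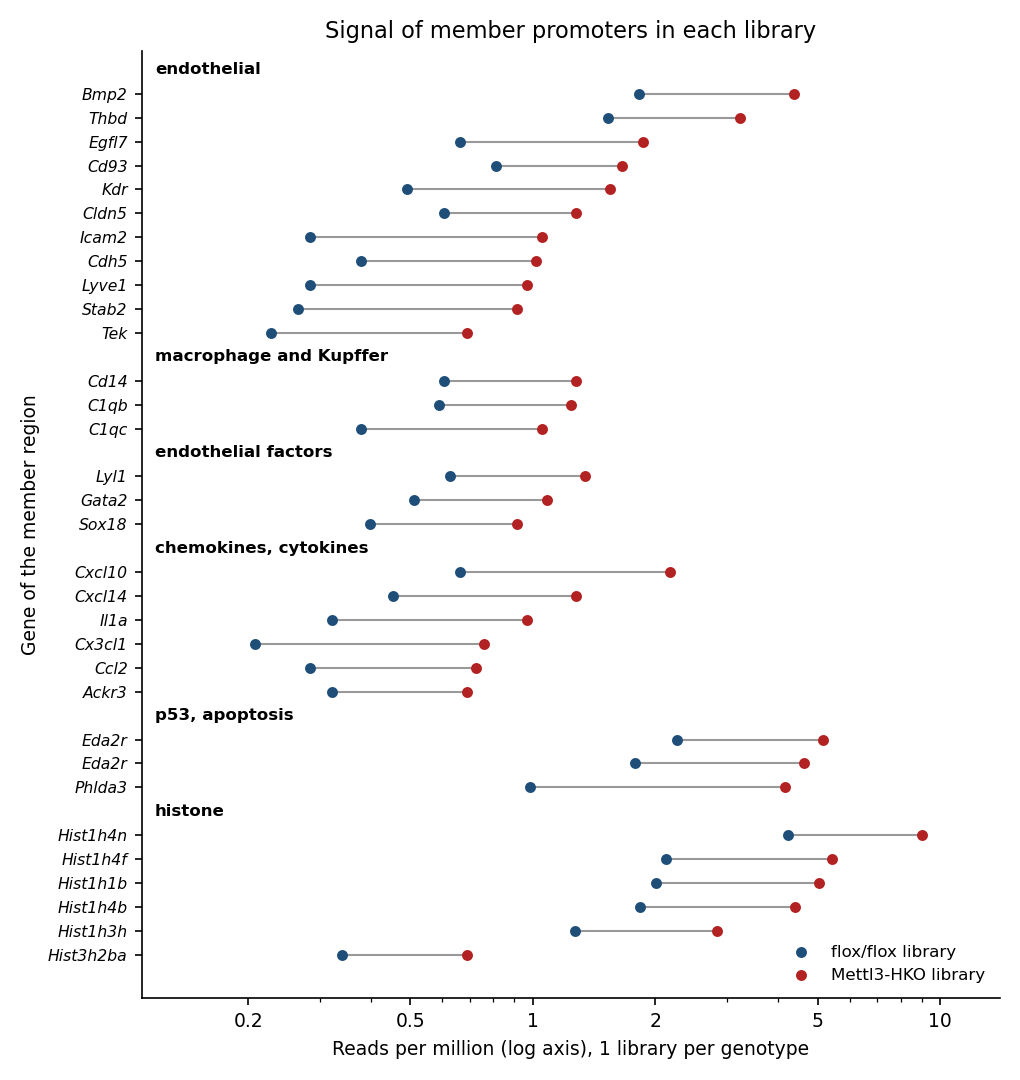
RPM (x axis, log scale) of member promoter regions in the flox/flox library (blue) and in the *Mettl3*-HKO library (red), 1 library per genotype, by gene group (y axis). Endothelial, macrophage and chemokine genes lie mostly below 1 RPM in flox/flox, and histone genes reach 9.01 RPM in *Mettl3*-HKO.

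Chemokines and cytokines gave 6 members among the 23 regions of that list, against 1.5 at the same signal. *Cxcl10*, an interferon-induced attractant of T cells, had 34 and 125 reads (1.71), and its second promoter region, at 119 and 218 reads, had a ratio of 0.73 and was no member. *Cx3cl1*, the membrane-bound chemokine fractalkine, had 10 and 43 (1.86), and *Il1a*, an alarm cytokine, 16 and 55 (1.58). *Cxcl14* had 23 and 73 (1.49). *Ccl2*, the attractant of monocytes and a gene the study examined, had 14 and 41 reads (1.35, interval 0.51 to 2.40). *Ackr3*, a scavenging receptor of chemokines, had 16 and 39 (1.10). The list as a whole was not shifted to the same extent: its median was -0.28 and 10 of 23 regions were above 0. *Cd36*, the fatty acid transporter that the study examined beside *Ccl2*, had regions of 42 and 82 reads (0.81) and of 81 and 127 reads (0.51) and was no member. Under each of the 4 other scalings the region at its start site passes the threshold, with ratios from 1.19 to 1.46. The promoter region of *Mettl3* itself had 566 and 392 reads (-0.66), beside a median of -0.66 for promoter regions of 898 to 1026 reads.

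Interferon-induced genes were put on a list only after the members had been seen, so their count supports nothing. Of 60 regions in 49 genes 14 were members, in 12 genes, against 2.95 at the same signal, and 37 had a ratio above 0 (median 0.28). *Ifi27l2b* was the highest, with 11 and 114 reads (3.12). Both regions of its neighbour *Ifi27* were members, with 115 and 255 reads (1.01) and 35 and 93 reads (1.25). Both regions of *Zbp1*, a sensor of nucleic acids, were members as well, with 70 and 226 reads (1.54) and 64 and 185 reads (1.38). *Slfn5* had 9 and 47 reads (2.13), *Apobec3*, a restriction factor of viruses, 18 and 73 (1.83), and *Xaf1* 22 and 71 (1.51). *Ifit3b* and *Ifit1bl2*, side by side, had 75 and 196 reads (1.24) and 22 and 51 (1.04). *Tap1*, the transporter that loads peptides onto MHC class I, had 22 and 60 (1.27).

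Further immune genes among the members stood on no fixed list and were chosen here after their values were seen. *Blnk*, an adaptor of B cell receptor signalling, had 39 and 178 reads (2.03), and *Fcgr4*, an Fc receptor of myeloid cells, 6 and 50 (2.73). *Cd38*, an NAD-hydrolysing surface enzyme, had 2 member regions with 40 and 149 reads (1.74) and 55 and 124 (1.02). *Cd83* had 50 and 151 reads (1.44), *Rgs1* 30 and 92 (1.45) and the kinase gene *Syk* 10 and 40 (1.76). *Sirpa*, an inhibitory receptor of myeloid cells, was among the strongest members with 133 and 322 reads (1.13). The genes for urokinase, *Plau* (16 and 42 reads, 1.20), and its receptor, *Plaur* (14 and 45 reads, 1.48), were both members.

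Replication-dependent histone genes had more signal than most members. Of 42 regions with a histone symbol 6 were members, against 0.565 at the same signal, and 27 had a ratio above 0 (median 0.16). *Hist1h4n*, a gene for histone H4, had 222 and 522 reads (1.09). *Hist1h4f* had 111 and 314 (1.36), *Hist1h1b* 105 and 292 (1.33), *Hist1h4b* 96 and 255 (1.26), *Hist1h3h* 66 and 163 (1.16) and *Hist3h2ba* 17 and 39 (1.02). These genes have near-identical copies, and the assignment of reads to a copy is uncertain. The fixed cell cycle list held no member among 40 regions, beside a same-signal number of 0.556, with a median of -0.44.

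Transfer RNA genes, transcribed by RNA polymerase III, underlay some of the highest ratios. The member with the highest ratio, at an unnamed transcript on chromosome 13 (ENSMUSG00000080698), had 19 and 272 reads (3.64) and overlapped a RefSeq tRNA gene. In all 5 members (1.15%) overlapped one, against 0.114% at the same signal. A pair of them lay next to each other on chromosome 1 with 178 and 705 reads (1.84) and 19 and 150 reads (2.78). Over the 45 promoter regions that overlap a tRNA gene the median was -0.27 and 10 were above 0. Among 126 regions over a tRNA gene and more than 1 kb from a listed start site, 27 (21.4%) were at least 2-fold higher, beside 12.7% of all 50103 such distant regions of at least 50 reads. tRNA genes also have near-identical copies.

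On the list of p53, apoptosis and stress genes 3 of 43 regions were members, from 2 genes, against 0.269 at the same signal. *Eda2r*, a receptor of the tumour necrosis factor family that p53 induces, had 2 member regions with 118 and 299 reads (1.20) and 93 and 267 reads (1.38). *Phlda3*, a p53 target that restrains AKT, had 51 and 241 reads (2.08). The median of the list was -0.35, and 7 of 43 regions were above 0. *Phlda2*, an imprinted growth regulator, was the member among 12 regions of the fetal and imprinted list, against 0.769 at the same signal, with 18 and 55 reads (1.42).

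Signalling, matrix and lipid lists held about as many members as regions of their signal. Of 53 regions of growth factor, Notch, Wnt, TGF-beta and Hedgehog genes 2 were members, against 2.55 at the same signal. They were *Dll4*, a Notch ligand of endothelial cells, with 14 and 36 reads (1.17), and *Gli2*, a Hedgehog transcription factor, with 18 and 47 (1.20). *Adamts9*, a metalloprotease gene, was the member among 22 matrix regions, against 1.41, with 23 and 53 reads (1.03). Of 59 regions of fatty acid uptake, lipid droplet and lipogenesis genes *Scd2*, a stearoyl-CoA desaturase, was the member, against 0.980, with 22 and 67 reads (1.43), and the median of that list was -0.84. The lists of adhesion and guidance (39 regions), acute phase and complement (48), immediate early genes (26) and m6A machinery with histone deacetylases (27) held no member, beside same-signal numbers of 1.5, 1.67, 0.159 and 0.204.

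Some members are genes of hepatocyte metabolism and detoxification, picked here after their values were seen. *Slc7a11*, the cystine transporter, had 58 and 202 reads (1.65) and *Ces2c*, a carboxylesterase, 73 and 212 (1.39). *Gsta2*, a glutathione transferase, had 41 and 101 (1.14) and *Aldh1b1* 54 and 143 (1.25). *Cyp4a12a*, a fatty acid hydroxylase, had 2 member regions with 13 and 47 reads (1.64) and 18 and 45 reads (1.14). They were the members among 50 regions of cytochrome P450 families 1 to 4, against 2.69 at the same signal, and the median of these was -0.77. *Cyp26b1*, a P450 of another family that degrades retinoic acid, was a member with 14 and 48 reads (1.57). *Serpina7*, which encodes thyroxine-binding globulin, had 107 and 238 reads (1.01), and the protease inhibitors *Serpina3f* and *Serpina3i* had 8 and 47 (2.28) and 20 and 59 (1.38). No ribosomal protein promoter, out of 79 regions, was a member, beside a same-signal number of 0.467.

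**Figure D3:**
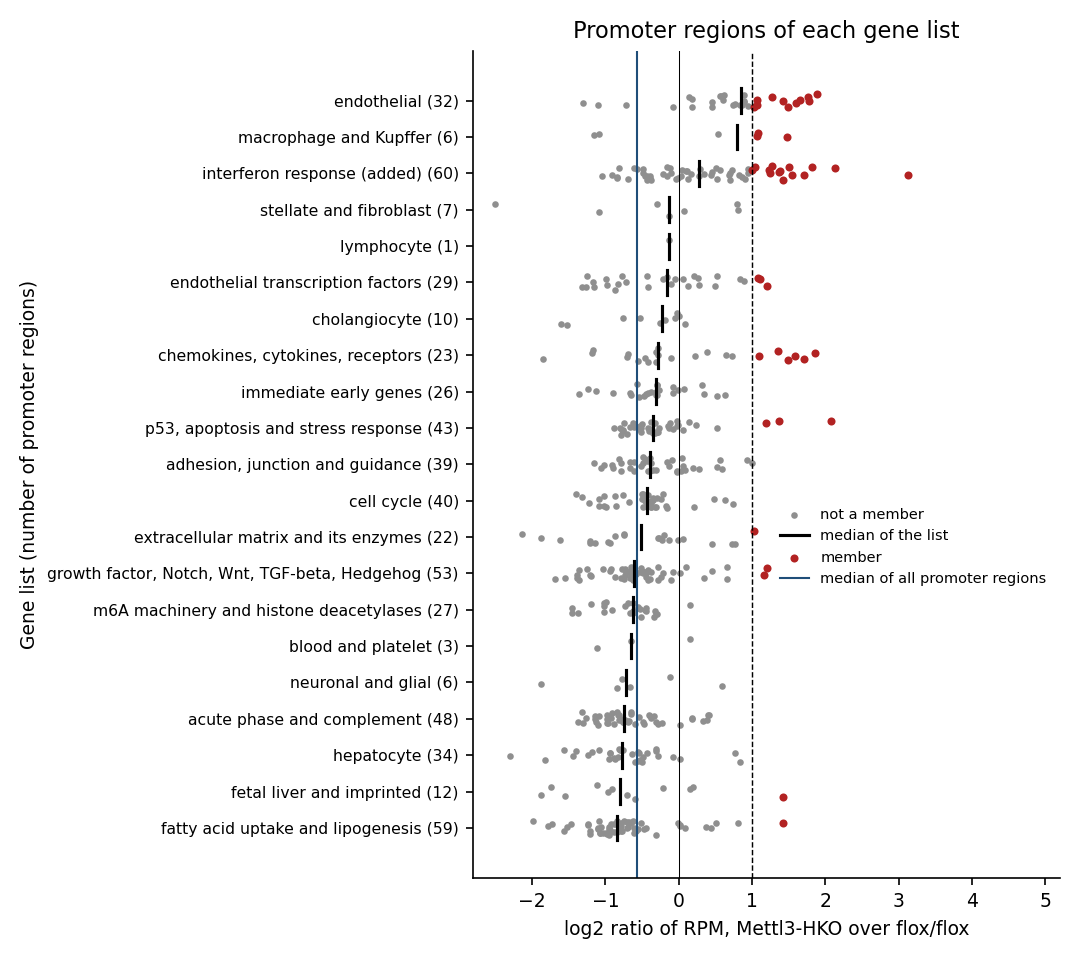
Log2 ratio of RPM, *Mettl3*-HKO over flox/flox, of each promoter region (x axis) by gene list (y axis, with the number of regions). Red points are members, black bars the median of a list, the blue line the median of all promoter regions (-0.57) and the dashed line the threshold at 1; endothelial markers have the highest median (0.85) and fatty acid genes the lowest (-0.84).

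Over all fixed lists 31 members were on a list, 14 of them on a cell type list, and 403 were on none, 215 of these with a gene symbol. The list medians from -0.62 to -0.14 change sign under at least 1 other scaling. Those of the endothelial, macrophage and interferon lists stay above 0, and those of the hepatocyte, acute phase, fetal, fatty acid, neuronal and blood lists stay below 0. Annotation terms of the deposited table were counted after the members had been seen and give a description only. The nucleosome term had 6 member genes, against 0.570 regions at the same signal, all of them histone genes. Neutrophil chemotaxis had 5 (*Ccl2*, *Cx3cl1*, *Lgals3*, *Syk* and *Vav3*), against 1.24. Inflammatory response had 13 member regions against 6.53, positive regulation of angiogenesis 8 against 3.99, angiogenesis itself 9 against 6.10 and defense response to virus 7 against 2.68. Other terms were below their same-signal number, such as DNA-templated regulation of transcription with 11 against 29.9 and nucleic acid binding with 6 against 17.3.

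Among the highest ratios outside these groups, *Pak6*, a p21-activated kinase gene, had 19 and 220 reads (3.33). *Trdd2*, a diversity segment of the T cell receptor delta locus, had 12 and 123 reads (3.12) in 1 region and 10 and 55 (2.21) in a second. *Cib3*, which encodes a calcium- and integrin-binding protein, had 21 and 200 reads (3.06), and its relative *Cib4* had 2 member regions with 5 and 48 reads (2.89) and 69 and 167 (1.13). *Arhgef2*, which encodes a microtubule-associated exchange factor, had 16 and 142 reads (2.94), and *Aqp7*, a glycerol channel, 5 and 49 (2.92). The highest total was at an unnamed transcript on chromosome 4 (ENSMUSG00000052767) with 721 and 2031 reads (1.36). *Tctex1d4*, of a dynein light chain family, followed with 358 and 796 (1.01), and *Ttc39a* had 157 and 417 (1.27) and *Ppcdc*, an enzyme of coenzyme A synthesis, 114 and 386 (1.61). With 2 member regions each there were 20 genes, among them also *Chst2*, *Fam129a*, *Gabrr2*, *Hdgfl3*, *Lrmp*, *Pnp2* and *Prr5l*.

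At the edge of the rule, *Ydjc* (28 and 63 reads, 1.01) lay just inside, with transcripts without a symbol at 19 and 43 reads and at 38 and 85 reads. Just outside were *Tbx2* (61 and 135 reads, 0.998), *Icam1* (46 and 102 reads, 0.996) and a transcript at 20 and 45 reads (0.995).

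By annotation, 246 members (56.7%) lay at a gene with a symbol, against 65.8% at the same signal, and 182 of the 414 genes had none. The distance from the start site was like that of same-signal promoters: 50.7% of members were centred within 250 bp, against 52.0%. The centre lay in exon 1 or the 5' UTR in 17.7%, against 21.7%. Members occurred on the X chromosome in 3.0%, against 3.40%. Within 100 kb of each other lay 92 members in 40 groups, 10 of them of at least 3 members. These included *Ifi27* with *Ifi27l2b*, *Serpina3f* with *Serpina3i*, *Ly6c1* with *Ly6c2*, and 4 members among the 11 promoter regions of a histone stretch on chromosome 13. Neighbouring regions share their surroundings and are not independent.

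Regions away from the promoter took no part in the rule, although they come from the same 2 libraries. Of the 414 member genes 253 were also the nearest gene of at least 1 region more than 1 kb from the start site with at least 50 reads, 680 regions in all. Their median log2 ratio was 0.15 (95% interval 0.058 to 0.26 by order statistics), beside -0.32 for all 50103 such regions. With a minimum of 100 reads it was 0.014, and with 200 reads it turned to -0.24, beside -0.44 and -0.56 for all such regions. Under the other scalings it was 0.49 to 0.72. A ratio above 0 was found in 55.4% of the 680, against 39.6% at the same signal. At least 2-fold higher were 167 (24.6%, Wilson interval 21.5% to 27.9%), against 13.8% at the same signal and 12.7% of all. Within 10 kb of the start site the median was 0.25, beside -0.40 for all genes. Beyond 10 kb it was 0.096, beside -0.27. The 33 regions of genes on either endothelial list came from 11 genes and had a median of 0.49, and the 647 regions of the other member genes came from 242 genes and had one of 0.14. Counted by gene, 145 of the 253 gene medians (57.3%) were above 0, beside 37.2% of 19824 other genes, and their median was 0.22, beside -0.28. Regions of a gene are not independent, so that the intervals over regions are only a description. Regions of member genes without a symbol had a median of 0.011.

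The genes differed among themselves. Of 48 member genes with a symbol and at least 3 distant regions, 12 had every ratio above 0 and 5 had none. All 3 distant regions of *Cx3cl1* were at least 2-fold higher, from 1.47 to 2.66, and 5 of 6 at *Serpina7*. At *Pak6* all 4 had a ratio above 0, from 0.83 to 2.93, and at *Sirpa* all 3, from 0.62 to 2.34. At *Kdr* all 3 were above 0, from 0.25 to 2.14, and at *Bmp2* all 5, from 0.097 to 1.45. *Stab2* had regions on both sides, from -1.17 to 1.41, as had *Lyve1*, from -1.20 to 2.06, and *Cldn5*, from -2.70 to 1.05. All regions were lower in *Mettl3*-HKO at *Ctnnd2* (4 regions, from -2.29 to -1.04), *Kcnab1* (5, from -1.36 to -0.24) and *Gsta2* (4, from -1.78 to -0.79). The single distant regions of *Eda2r* (-1.10), *Phlda3* (-0.49) and *Zbp1* (-0.60) were lower in *Mettl3*-HKO. In addition 57 further promoter regions of member genes had not reached the threshold themselves; the median of these was 0.37, and 40 were above 0.

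**Figure D4:**
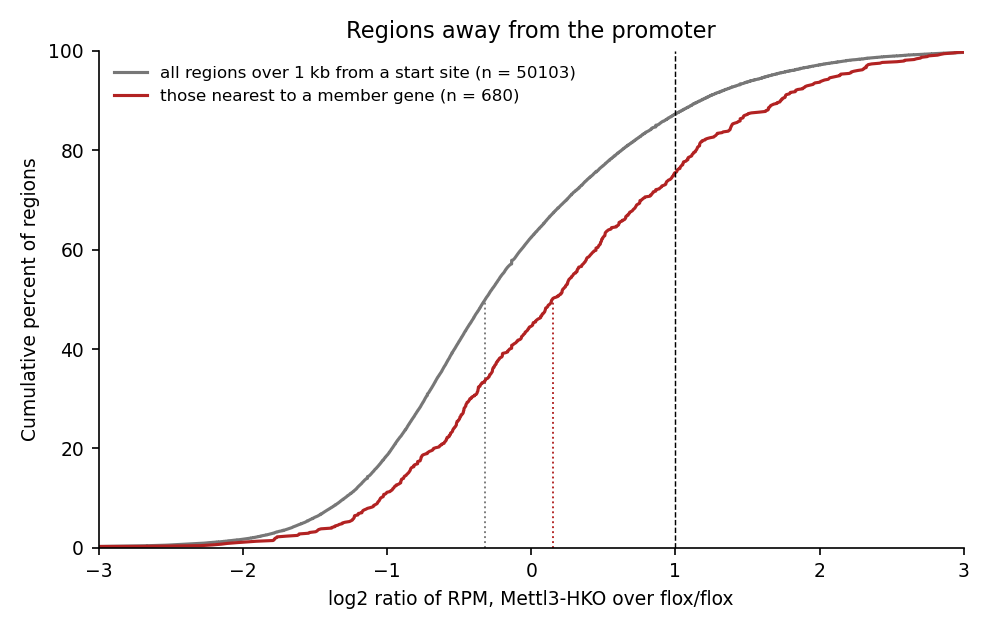
Cumulative percent of regions (y axis) by log2 ratio of RPM, *Mettl3*-HKO over flox/flox (x axis), for all 50103 regions more than 1 kb from a start site (grey) and the 680 nearest to a member gene (red). Dotted lines are the medians, -0.32 and 0.15, and the dashed line is a 2-fold difference.

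Sequence composition could be read for few members. A RefSeq promoter window overlapped 143 of the 434 (32.9%), less than the 80% needed, so the check of composition is void for the members as a whole and describes those 143 alone. Of these, 112 overlapped a window with the symbol of the member gene and 31 one of a gene with another name or at a member without a symbol. The windows were 142 distinct ones, since both regions of *Gabrr2* share theirs, which is counted for each region. Windows were at hand for 64.2% of the other promoter regions. The ratio of observed to expected CpG had a median of 0.38 in the 143 (interval 0.33 to 0.53), beside 0.78 in the others. The mean was 0.471, against 0.583 at the same signal. Promoters at or above 0.6 with at least 50% GC were called CpG-rich. They were 44 of the 143 (30.8%, Wilson interval 23.8% to 38.8%), against 48.0% at the same signal. Among promoters under 200 reads, 13.3% of 564 CpG-poor ones were members and 7.62% of 512 CpG-rich ones. Of the promoters shown, *Gata2* has a ratio of 0.760 and *Cxcl14* of 0.772. *Egfl7* has 0.311, *Eda2r* 0.264, *C1qb* 0.253, *Cib3* 0.136 and *Ifit3b* 0.0582.

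**Figure D5:**
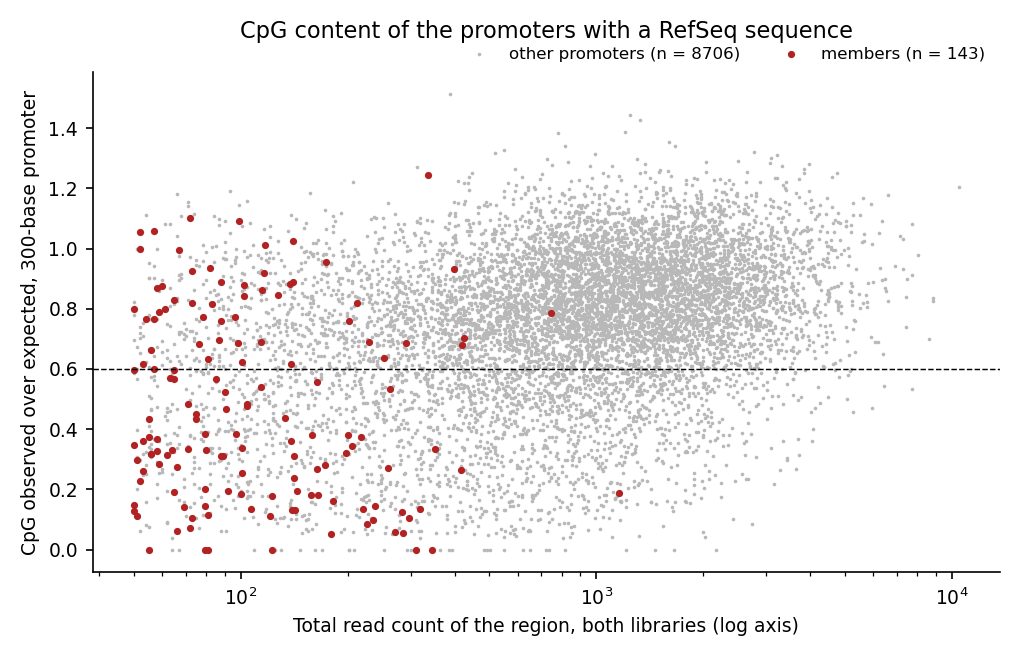
Ratio of observed to expected CpG in the 300-base RefSeq promoter (y axis) by total read count of the region (x axis, log scale) for the 143 members with a window (red) and the other promoters (grey). The dashed line is at 0.6; most members lie at low counts and below the line.

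Short motifs were searched on both strands of these windows, and a match is a description of the letters and no sign of a bound factor. Of 23 motifs, 19 had a same-signal share within the Wilson interval of the members' share, and 4 did not. The TATA box (TATAAA) was found in 22 of 143 member windows (15.4%), against 8.21% at the same signal and 13.6% of all RefSeq promoters. The promoter-type ETS letters CCGGAAG were found in 3 (2.10%), against 8.01% at the same signal and 8.86% of all. The PU.1-type ETS letters GAGGAAGT occurred in 9 (6.29%), against 2.95% and 3.20% of all, and the loose CEBP letters TTNCNNAA in 62 (43.4%), against 33.7% and 40.7% of all. Among the 19 were the ERG-type ETS letters ACAGGAAG in 7 (4.90%), against 3.80% and 3.58% of all, and the SP1 letters GGGCGG in 66 (46.2%), against 53.9% and 35.7% of all. The IRF letters GAAANNGAA occurred in 14 (9.79%), against 6.76% and 8.56% of all. *Eda2r* has TATAAA on the forward strand from base -58, counted from the start site as 0. *Ifit3b* has the IRF letters at -187, -153 and -134, and *Gata2* has GGGCGG at -74, -63 and 29. These motifs can overlap, and the shares rest on few windows.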

How the data were processed

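ATAC-seq was done by the authors on liver nuclei, with 1 library from 4 pooled livers per genotype. Per the labels, the submitters' processing notes name BWA, MACS2 and GRCm38, without versions. The deposited table gives, for regions merged over both libraries, the read count of each library (counts, not normalised) and an RPM value made by the authors, which equals the count plus 1 scaled to the number of reads of the library. It also gives peak calls, the nearest start site and annotation terms. Columns holding the authors' own ratio between genotypes were not used. Of 74821 rows, 5272 repeated a region and were dropped.

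Ratios were computed as log2 of the counts plus 1 per library total. Gene names came from the ID and symbol pairs in the table. With 1 library per group no test was run, and the self-test on simulated counts checked the rule and intervals. Intervals are 95% Clopper-Pearson for ratios, Wilson for shares and order statistics for medians. The genes named were the 10 highest ratios and 10 highest totals as far as they have a symbol, up to 8 members per list by total, the nearest to the threshold, genes with 2 member regions, *Ccl2* and *Cd36*; all other genes named, such as *Lyve1*, *Stab2*, *Tek* and the histone genes, were chosen after their values were seen. From the highest ratios and totals, most transcripts without a symbol were left unnamed. Same-signal values are over all promoter regions of like total count; the plan had named non-members alone, which gives for example 2.03 endothelial regions in place of 3.08. Promoter sequences and tRNA positions came from RefSeq. The members, the 8 cell type lists, the 12 function lists and the rules were chosen with earlier results of these data known. Alternatives were 4 scalings, 2 added counts, 3 count minimums, 2 windows, 2 fold thresholds and 2 choices of regions. TMM factors came from edgeR 4.0.16 in R 4.3.3, intervals from scipy 1.17.1 and figures from matplotlib 3.10.9, with pandas 2.3.3 and numpy 2.4.6 under Python 3.11.15.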

Additional observations from a re-analysis of the deposited data

How the results depend on the processing

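With 1 library per genotype, differences between libraries of a genotype cannot be measured and the intervals of the ratios cover counting error alone. The low counts in flox/flox also limit each single ratio. There were 794 members in place of 434 when all ratios were centred on their median over regions, 984 with library sizes taken as reads in regions, 815 with TMM and 1194 when the ratios were centred on the top 10% of promoters by signal. In this order, the promoter regions at least 2-fold lower became 681, 423, 646 and 263 in place of 2285. The endothelial list gave 20, 23, 20 and 25 in place of 11. The median of the other regions of member genes became 0.49, 0.63, 0.51 and 0.72 in place of 0.15, while that of all such regions became 0.059, 0.19, 0.072 and 0.33. The percent of members with a peak in both libraries became 32.1, 37.0, 33.3 and 42.5 in place of 20.5. A minimum of 100 reads gave 208 members, 6 endothelial ones, 41.8% with both peaks and a median of other regions of 0.014. A minimum of 200 reads gave 82, 2, 65.9% and a reversed median of -0.24, over 56 regions, beside -0.56 for all such regions. A minimum of 30 reads gave 15.5% with both peaks. A distance up to 500 bp moved the median of other regions to 0.32, and one up to 2 kb gave 670 members. A 1.5-fold threshold gave 845 members, 21 endothelial ones and 33.7% with both peaks. A 3-fold threshold gave 138, 5 and 11.6%, and a median CpG ratio of 0.32. Regions with a symbol alone gave 246 members and a median of other regions of 0.29. The cause was not tested beyond the smaller number of regions. The CpG ratio stayed within its interval in 14 of 15 alternatives. Adding 0.5 or 5 reads and using the strongest region per gene moved none of these values beyond its interval, or its count by over 1.5 times.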
